A study of Mus musculus with 6 samples.

Results

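A set of 10 genes known from other systems for exons that switch between epithelial and mesenchymal cells was followed in mouse medullary thymic epithelial cells (mTECs) after knockdown of Raver2 or Setd2. The genes were Spag9, Arhgap17, Numb, Mbnl1, Mark2, Mark3, Exoc7, Tcf7l2, Map3k7 and Ctnnd1. All table entries under these 10 symbols were taken and numbered by their order within the gene, which gave 32 events of 4658 events in the whole comparison, and 10 of 2685 genes. Every library listed all 32. The rule uses no measured value, but the genes were picked with earlier results of these data known.

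The Raver2 knockdown group held 2 libraries of primary mTECs infected with lentivirus expressing an shRNA against Raver2, with hairpin sh1 in replicate 1 and sh2 in replicate 2. The Setd2 knockdown group held 2 libraries made in the same way with hairpins sh1 and sh2 against Setd2, and the Ctr group held 2 libraries with an shRNA against LacZ, a bacterial gene that mouse cells lack. All 6 libraries shared the lentiviral vector with its GFP cassette, a fibrin gel co-culture with human dermal fibroblasts, collection 5 days after infection, and a sort for viable cells positive for I-A/E (mouse MHC class II) and GFP. Each group has only 2 libraries, and the labels name neither animals nor separate cultures, so each p-value reflects the spread among these 6 libraries only. That spread may be technical in Ctr, and in a knockdown group it includes the difference between hairpins. Cells were sorted in bulk, so a shift in the mix of cells and a shift within cells cannot be told apart.

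During an epithelial-mesenchymal transition, cells lose polarity and junctions and gain motility, and a set of exons changes along with gene expression. ESRP proteins drive the epithelial forms of many of these exons, and RBFOX2, QK, MBNL and PTB proteins act on many of the same exons. Raver2 binds PTB, a repressor of exons, and Setd2 places trimethylation on lysine 36 of histone H3 along transcribed genes, a mark that can guide PTB to exons. The mTECs are epithelial cells that display antigens of other tissues to developing T cells, many of them under the control of Aire.

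Each event came with an inclusion frequency, a fraction from 0 to 1 made by the authors. The libraries listed 4777 to 4949 events each, with no read counts, so the depth behind a fraction is unknown. Events carry a gene symbol and nothing else: which exon or splice site an event is, and whether more inclusion is the epithelial or the mesenchymal form, is not known here. Neither Raver2 nor Setd2 had a listed event, so the knockdowns cannot be checked with these values. Of 10 mTEC marker genes, Aire and Cd74 were listed, with 10 events together. Aire events 1, 2 and 3 passed for each knockdown (limma, adjusted p under 0.05), and no event of Cd74 did. Relative to Ctr, Aire events 1 and 2 rose from below 0.01 in both Ctr libraries, and event 3 fell from above 0.99 in both. Event 1 had 0.108 and 0.122 with Raver2 knockdown and 0.0846 and 0.0677 with Setd2 knockdown. Event 3 had 0.892 and 0.890 with Raver2 knockdown and 0.925 and 0.933 with Setd2 knockdown. Aire events 1 and 3 thus nearly mirrored each other and may not be independent measurements. The share of all events that passed was 2.43% for Raver2 knockdown and 2.23% for Setd2 knockdown. Between the knockdowns 0 of the 10 passed, where 0.730% of all events did. Here 3 of the 10 had an unadjusted p under 0.05, where 6.12% of all events had one. None of 7 epithelial markers, which included Esrp1, Esrp2 and Cdh1, had a listed event, and an inclusion fraction gives no expression level in any case.

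To show what can switch in these genes, coding cassette exons were read from GENCODE M21 (build mm10). These are coding exons that at least 1 other protein-coding transcript of the gene joins across. The 10 genes have 34 such exons, with a median length of 67.5 bases, against 97 bases for the 6233 such exons of all genes. Of the 34, 88.2% have a length that is a multiple of 3, so that skipping keeps the reading frame, against 78.5% of all. Arhgap17 has a single one but 3 events in the tables, Mbnl1 has 5 exons and 5 events, Tcf7l2 has 5 exons and 8 events, Numb has 3 of each, Ctnnd1 has 3 exons and 4 events, Map3k7 has 2 exons and 1 event, Mark3 has 3 exons and 1 event, and Spag9, Mark2 and Exoc7 have 4 exons each and 3, 2 and 2 events. Exons and events therefore do not pair off, and the exons below are candidates from the annotation, not the measured events.

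Shown are short or well-studied exons of Spag9, Arhgap17, Numb, Mbnl1, Mark2, Mark3, Map3k7 and Exoc7, genes in which all 4 knockdown libraries lay on the same side of both Ctr libraries in some event. They were read from the GENCODE transcripts 5′ to 3′ on the transcribed strand. Tcf7l2 also had events with all 4 knockdown libraries on the same side of Ctr, but its exons are not shown. Capitals mark TCTT, a core of pyrimidine motifs bound by PTB, searched on the transcribed strand alone. Spag9 also has annotated cassette exons of 12, 15 and 42 bases, not shown, and the 15-base exon holds TCTT.
Spag9, chr11:94113263-94113301, plus strand, 39 bases: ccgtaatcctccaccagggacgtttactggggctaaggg
Arhgap17, chr7:123294472-123294705, minus strand, 234 bases: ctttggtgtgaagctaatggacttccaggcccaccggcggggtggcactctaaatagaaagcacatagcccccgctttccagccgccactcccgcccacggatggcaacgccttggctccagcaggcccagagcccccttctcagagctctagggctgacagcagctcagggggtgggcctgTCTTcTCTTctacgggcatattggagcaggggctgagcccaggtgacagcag
Numb, chr12:83797197-83797343, minus strand, 147 bases: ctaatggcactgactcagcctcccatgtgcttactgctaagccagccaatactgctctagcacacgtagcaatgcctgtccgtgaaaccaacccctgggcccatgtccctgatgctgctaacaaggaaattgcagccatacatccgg
Numb, chr12:83825259-83825291, minus strand, 33 bases: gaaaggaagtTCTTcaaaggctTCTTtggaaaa
Mbnl1, chr3:60614683-60614736, plus strand, 54 bases: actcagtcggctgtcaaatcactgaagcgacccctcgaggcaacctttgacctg
Mbnl1, chr3:60621423-60621458, plus strand, 36 bases: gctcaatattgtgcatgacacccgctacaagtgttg
Mark2, chr19:7279986-7280012, minus strand, 27 bases: aaatctgTCTTtcaggtttgccagaag
Mark2, chr19:7278042-7278086, minus strand, 45 bases: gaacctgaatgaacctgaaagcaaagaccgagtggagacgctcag
Mark3, chr12:111651958-111651984, plus strand, 27 bases: aaacatgtcattcaggtttatcaaaag
Mark3, chr12:111653390-111653434, plus strand, 45 bases: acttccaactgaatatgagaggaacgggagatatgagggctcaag
Map3k7, chr4:31994874-31994954, plus strand, 81 bases: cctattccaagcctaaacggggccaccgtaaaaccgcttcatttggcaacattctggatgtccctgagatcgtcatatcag
Exoc7, chr11:116293275-116293313, minus strand, 39 bases: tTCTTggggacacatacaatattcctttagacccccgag

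The 147-base Numb exon lengthens the proline-rich region of this Notch inhibitor, and the 33-base exon inserts residues into its phosphotyrosine-binding domain. The 54-base exon of Mbnl1 contributes to nuclear localisation of this splicing regulator. Mark2 and Mark3, sister kinases of cell polarity, each have cassette exons of 27 and 45 bases: the 27-base exons are identical at 21 bases (77.8%) and the 45-base exons at 21 bases (46.7%), without gaps. TCTT occurs in 7 of the 34 exons of the 10 genes (20.6%), against 34.3% of the exons of all genes, whose median length is greater. The letters are a description, not a binding site, and the flanking introns were not searched.

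Across all comparisons, 0 of the 32 events passed the test (limma over all 4658 events, adjusted p under 0.05), while 113 of all events passed for Raver2 knockdown against Ctr (2.43%), 104 for Setd2 knockdown against Ctr (2.23%) and 34 for Raver2 against Setd2 knockdown (0.730%). An unadjusted p under 0.05 was reached by 6 of the 32 for Raver2 knockdown (12.0% of all events), by 5 for Setd2 knockdown (11.6% of all events) and by 1 between the knockdowns (6.12% of all events). The smallest adjusted p among the members was 0.202 for Raver2 knockdown, 0.212 for Setd2 knockdown and 0.520 between them. Exoc7 events 1 and 2 held equal values in every library and count once from here on, which leaves 31 distinct events. The values below therefore describe these libraries, and no event of the 10 genes is called changed.

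**Figure D1:**
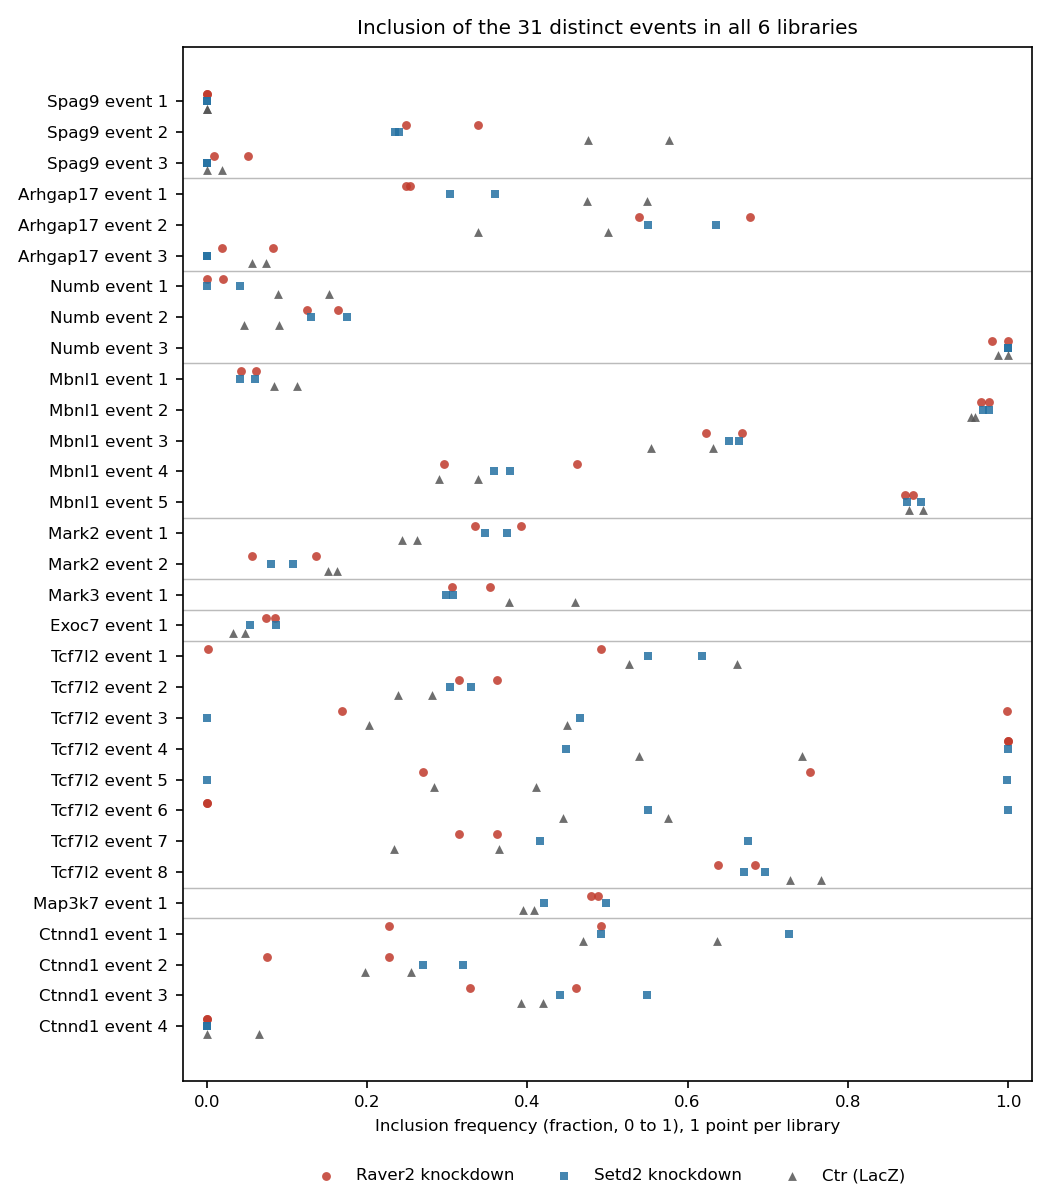
Inclusion frequency (x axis, fraction from 0 to 1) of the 31 distinct events (y axis, grouped by gene), with 1 point per library for Raver2 knockdown, Setd2 knockdown and Ctr. The points of Spag9 event 2 and Arhgap17 event 1 under both knockdowns lie left of both Ctr points, and those of Tcf7l2 events 3, 5 and 6 spread over much of the scale.

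Events with no library below 0.01 or above 0.99 are called mid-range here. Among the mid-range events of the 10 genes, Arhgap17 event 1 differed most between Raver2 knockdown and Ctr, and Spag9 event 2 differed most between Setd2 knockdown and Ctr. Spag9 encodes JIP4, a scaffold of MAP kinase signalling and a motor adaptor. Its event 2 had an inclusion of 0.249 and 0.338 in the Raver2 knockdown libraries, 0.239 and 0.235 in the Setd2 knockdown libraries, and 0.577 and 0.476 in Ctr. All 4 knockdown libraries were below both Ctr libraries. The difference was -0.233 for Raver2 knockdown (SE 0.0643, 95% interval -0.417 to -0.0490; limma, adjusted p = 0.311) and -0.290 for Setd2 knockdown (95% interval -0.474 to -0.106; limma, adjusted p = 0.212). Raver2 and Setd2 knockdown differed by 0.0566 (95% interval -0.127 to 0.241), an interval that includes 0. Event 1 of Spag9 was below 0.01 in all libraries, and event 3 was at most 0.0514, in Raver2 knockdown replicate 1.

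Arhgap17, also called Rich1, is a GTPase-activating protein for Cdc42 and Rac1 that maintains tight junctions. Event 1 had an inclusion of 0.254 and 0.248 in the Raver2 knockdown libraries, 0.304 and 0.360 in the Setd2 knockdown libraries, and 0.549 and 0.474 in Ctr. The 3 groups did not overlap, with Raver2 knockdown lowest and Ctr highest. The difference from Ctr was -0.261 for Raver2 knockdown (SE 0.0548, 95% interval -0.418 to -0.104; limma, adjusted p = 0.202) and -0.180 for Setd2 knockdown (95% interval -0.337 to -0.0231; limma, adjusted p = 0.358). Event 2 lay the other way, with 0.539 and 0.678 with Raver2 knockdown, 0.551 and 0.636 with Setd2 knockdown, and 0.501 and 0.338 in Ctr. Both knockdowns lay above Ctr without overlap, but the Ctr libraries alone had an SD of 0.115. The adjusted p was 0.601 for Raver2 knockdown and 0.653 for Setd2 knockdown against Ctr (limma). Event 3 averaged 0.0504 under Raver2 knockdown, below 0.01 under Setd2 knockdown and 0.0648 in Ctr.

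Numb holds back Notch signalling and takes part in endocytosis at junctions. Event 1 was below 0.01 and 0.0198 in the Raver2 knockdown libraries, below 0.01 and 0.0412 in the Setd2 knockdown libraries, and 0.0888 and 0.153 in Ctr. Each knockdown library was lower than each Ctr library, with a difference of -0.111 for Raver2 knockdown (limma, adjusted p = 0.286) and -0.100 for Setd2 knockdown (adjusted p = 0.327). Event 2 had 0.164 and 0.125 with Raver2 knockdown, 0.130 and 0.175 with Setd2 knockdown, and 0.0904 and 0.0464 in Ctr. Here the knockdown libraries were the higher ones, by 0.0760 for Raver2 knockdown (limma, adjusted p = 0.434) and by 0.0839 for Setd2 knockdown (adjusted p = 0.403). Event 3 was at least 0.980 in every library.

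Mbnl1, a zinc finger protein that itself controls developmental exons, had 5 events, all mid-range. Event 1 had an inclusion of 0.0422 and 0.0615 with Raver2 knockdown, 0.0607 and 0.0416 with Setd2 knockdown, and 0.113 and 0.0836 in Ctr. It averaged 0.0519 ± 0.0136 under Raver2 knockdown, 0.0512 ± 0.0135 under Setd2 knockdown and 0.0982 ± 0.0206 in Ctr (SD, n = 2 each). Both knockdowns lay below Ctr without overlap (limma, adjusted p = 0.382 for Raver2 knockdown and 0.370 for Setd2 knockdown). Event 2 averaged 0.971 ± 0.00664 under Raver2 knockdown, 0.972 ± 0.00569 under Setd2 knockdown and 0.956 ± 0.00379 in Ctr, again without overlap between knockdown and Ctr. Events 3 and 4 averaged 0.645 and 0.379 with Raver2 knockdown, 0.659 and 0.369 with Setd2 knockdown, and 0.593 and 0.314 in Ctr. For these 2 events the Setd2 knockdown libraries were above both Ctr libraries, while the Raver2 knockdown libraries overlapped Ctr. Event 5 overlapped in all groups, with means of 0.876 under Raver2 knockdown, 0.883 under Setd2 knockdown and 0.885 in Ctr.

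The polarity kinases Mark2 and Mark3, also known as Par-1 kinases, phosphorylate microtubule-associated proteins. Mark2 event 1 had an inclusion of 0.393 and 0.335 with Raver2 knockdown, 0.347 and 0.375 with Setd2 knockdown, and 0.262 and 0.243 in Ctr. Both knockdowns were higher than Ctr in every library, by 0.111 for Raver2 knockdown (limma, adjusted p = 0.488) and by 0.108 for Setd2 knockdown (adjusted p = 0.521). Mark2 event 2 was lower instead, with 0.0569 and 0.136 with Raver2 knockdown, 0.107 and 0.0803 with Setd2 knockdown, and 0.162 and 0.152 in Ctr. The only event of Mark3 had 0.353 and 0.305 with Raver2 knockdown, 0.299 and 0.308 with Setd2 knockdown, and 0.459 and 0.377 in Ctr. It was thus also lower in all knockdown libraries, with a difference of -0.0888 for Raver2 knockdown (95% interval -0.243 to 0.0656; limma, adjusted p = 0.712) and -0.115 for Setd2 knockdown (adjusted p = 0.571).

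**Figure D2:**
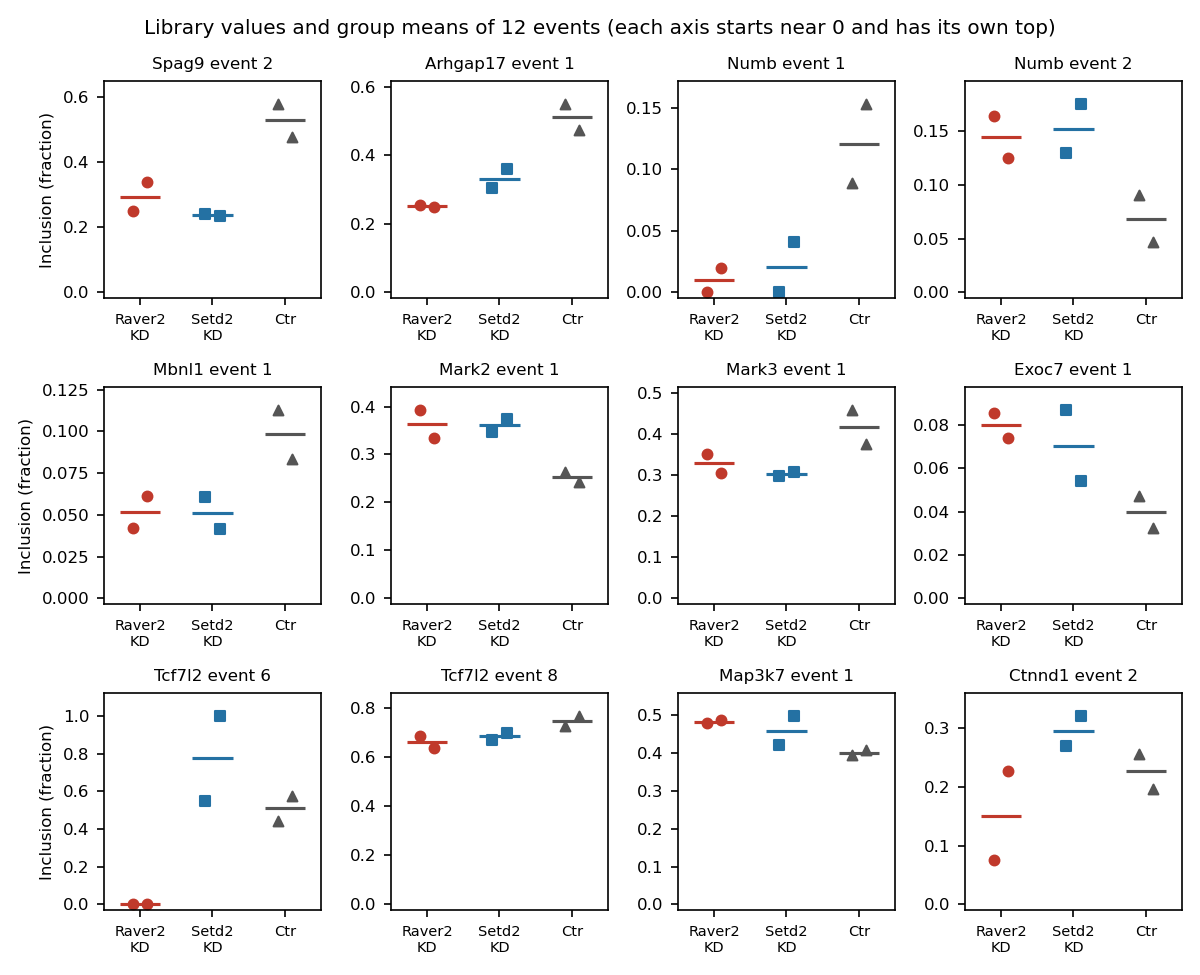
Inclusion frequency (y axis, fraction, with its own scale in each panel) of 12 events in Raver2 knockdown, Setd2 knockdown and Ctr; points are the 2 libraries of a group and horizontal lines their mean. The events were chosen by their p-values, so the separation of groups in the panels is a description: in Tcf7l2 event 6 and Ctnnd1 event 2 the knockdown libraries lie on both sides of Ctr or among its values, and in the other panels they lie on the same side.

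Exoc7 and Map3k7 gave small differences in the same sense in both knockdowns. Exoc7 is a subunit of the exocyst, which delivers vesicles to the plasma membrane. Its event had an inclusion of 0.0855 and 0.0739 with Raver2 knockdown, 0.0868 and 0.0540 with Setd2 knockdown, and 0.0472 and 0.0326 in Ctr. It averaged 0.0797 ± 0.00821 under Raver2 knockdown, 0.0704 ± 0.0231 under Setd2 knockdown and 0.0399 ± 0.0103 in Ctr (SD, n = 2 each). Every knockdown library was above both Ctr libraries (limma, adjusted p = 0.414 for Raver2 knockdown and 0.559 for Setd2 knockdown). Map3k7, or TAK1, is a kinase that relays TGF-beta and inflammatory signals. It had 0.479 and 0.488 with Raver2 knockdown, 0.421 and 0.498 with Setd2 knockdown, and 0.395 and 0.409 in Ctr. All knockdown libraries were above both Ctr libraries, but the lowest Setd2 knockdown library exceeded the highest Ctr library by less than the SD of the Setd2 knockdown group, 0.0544. The adjusted p was 0.712 for Raver2 knockdown and 0.748 for Setd2 knockdown (limma).

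Tcf7l2 is a transcription factor at the end of Wnt signalling. Its events 2 and 8 summed to 1 within 0.00927 in every library, so they are not independent measurements. Event 8 had an inclusion of 0.685 and 0.638 with Raver2 knockdown, 0.670 and 0.697 with Setd2 knockdown, and 0.728 and 0.766 in Ctr, with each knockdown library below each Ctr library (limma, difference -0.0860 and adjusted p = 0.413 for Raver2 knockdown, difference -0.0637 and adjusted p = 0.571 for Setd2 knockdown). Event 2 mirrored it, with means of 0.339 under Raver2 knockdown, 0.317 under Setd2 knockdown and 0.260 in Ctr. Event 7 averaged 0.339 under Raver2 knockdown, 0.546 under Setd2 knockdown and 0.299 in Ctr, and only the Setd2 knockdown libraries lay apart from Ctr (limma, adjusted p = 0.578). Events 7 and 8 summed to within 0.02 of 1 in 3 libraries, so event 7 may not be independent of event 8 either.

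Tcf7l2 events 1, 3, 4, 5 and 6 had at least 1 library at an end of the scale. Event 1 was 0.00139 and 0.492 in the Raver2 knockdown libraries, 0.618 and 0.551 in the Setd2 knockdown libraries, and 0.527 and 0.662 in Ctr. Event 3 was above 0.99 and 0.169 in the Raver2 knockdown libraries, and event 5 was above 0.99 and below 0.01 in the Setd2 knockdown libraries. Event 6 was below 0.01 in both Raver2 knockdown libraries, against 0.551 and above 0.99 in the Setd2 knockdown libraries and 0.444 and 0.576 in Ctr. Raver2 knockdown thus lay apart from both other groups, by -0.776 against Setd2 knockdown (SE 0.178; limma, adjusted p = 0.520) and by -0.510 against Ctr (adjusted p = 0.413). Event 4 was above 0.99 in both Raver2 knockdown libraries and in Setd2 knockdown replicate 2, with 0.449 in Setd2 knockdown replicate 1 and 0.742 and 0.540 in Ctr. Events 4 and 6 summed to within 0.02 of 1 in 3 libraries, so they may not be independent measurements. With the depth unknown, fractions at the ends of the scale cannot be told from thin coverage.

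Ctnnd1 encodes p120 catenin, which stabilises cadherins at junctions and is among the best-known genes of the switch. No event of Ctnnd1 had all knockdown libraries on the same side of Ctr. Event 1 had 0.227 and 0.492 with Raver2 knockdown, 0.492 and 0.727 with Setd2 knockdown, and 0.637 and 0.470 in Ctr, so that all groups overlapped. Event 2 had 0.0748 and 0.227 with Raver2 knockdown, 0.270 and 0.320 with Setd2 knockdown, and 0.255 and 0.197 in Ctr. The knockdowns did not overlap each other and differed by -0.144 (95% interval -0.331 to 0.0426; limma, adjusted p = 0.964). Event 3 averaged 0.395 under Raver2 knockdown, 0.495 under Setd2 knockdown and 0.406 in Ctr, with both Setd2 knockdown libraries above Ctr. Event 4 was below 0.01 in every library except Ctr replicate 1, which had 0.0655; without Ctr replicate 2 it was called against Ctr for both knockdowns (limma, adjusted p = 0.000553 each), with the lone Ctr library assumed to vary like the other groups.

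Taking the libraries of each group as ranges, 17 of the 31 distinct events had both Raver2 knockdown libraries beyond both Ctr libraries, 8 higher and 9 lower, where 43.9% of all events did (20.5% higher and 23.3% lower). For Setd2 knockdown the count was 21 of 31, with 12 higher and 9 lower, where 42.3% of all events did (21.0% higher and 21.3% lower). This count includes Spag9 event 1, which was below 0.01 throughout. Between the knockdowns, 11 of 31 lay apart, 5 higher and 6 lower under Raver2 knockdown, where 33.6% of all events did (15.3% higher and 18.4% lower). These 11 include Spag9 events 1 and 3, Numb event 3 and Tcf7l2 event 4. In each of these the libraries nearest to each other were all below 0.01 or all above 0.99. Of the 20 distinct mid-range events, 13 lay apart for Raver2 knockdown (48.2% of all mid-range events) and 18 for Setd2 knockdown (45.4%). For Raver2 against Setd2 knockdown, 4 of these 20 lay apart (34.5% of all mid-range events). An unadjusted p under 0.05 was reached by 4 of the 20 for Raver2 knockdown (13.1% of all mid-range events), 4 for Setd2 knockdown (12.6%) and 0 between the knockdowns (5.10%). Both comparisons with Ctr use the same Ctr libraries, so their differences share the error of Ctr. Each count against Ctr of events lying apart holds Tcf7l2 event 2 among the higher and event 8 among the lower, although these mirror each other.

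The median absolute difference over the 20 mid-range events was 0.0757 for Raver2 knockdown against Ctr, beside 0.0413 over all 2000 mid-range events. For Setd2 knockdown against Ctr it was 0.0644, beside 0.0426. Between the knockdowns it was 0.0187, beside 0.0286. The libraries of a group differed by a median of 0.0468 in these 20 events under Raver2 knockdown, 0.0275 under Setd2 knockdown and 0.0432 in Ctr, where all mid-range events had 0.0366 under Raver2 knockdown, 0.0416 under Setd2 knockdown and 0.0397 in Ctr. These medians describe the list; whether the 10 genes stand apart from other genes was not tested.

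**Figure D3:**
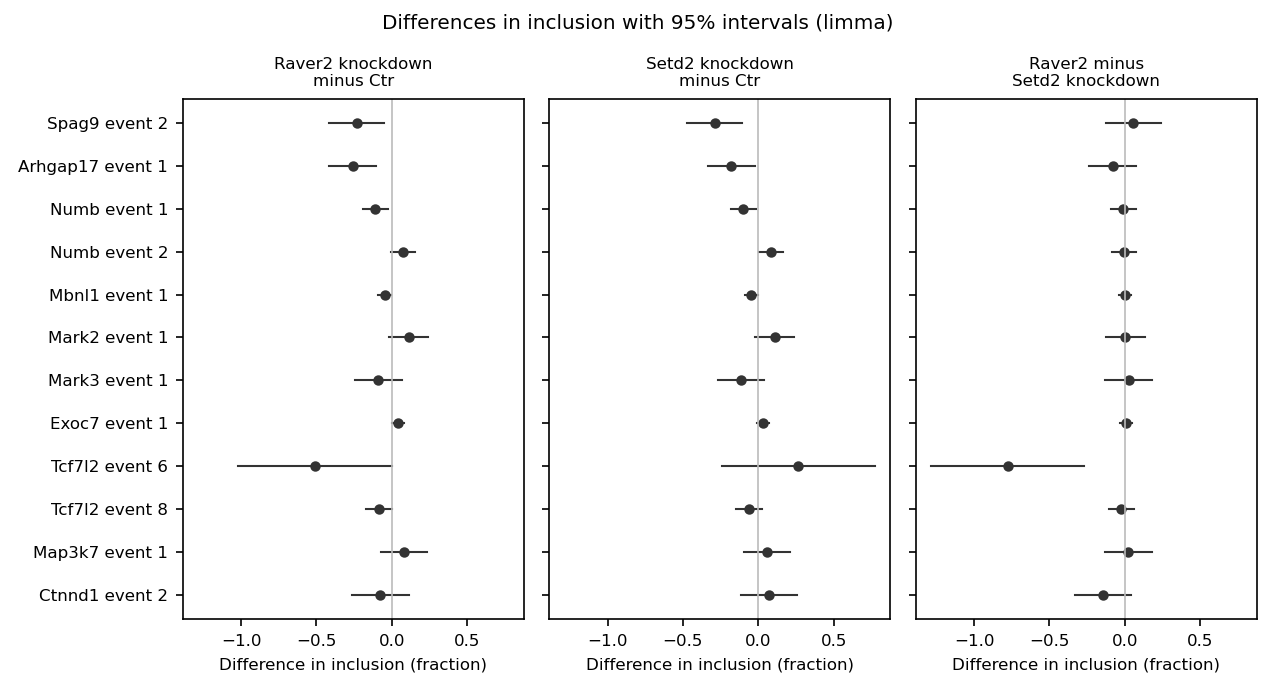
Difference in inclusion (x axis, fraction) of 12 events (y axis) for Raver2 knockdown minus Ctr, Setd2 knockdown minus Ctr and Raver2 minus Setd2 knockdown; points are limma estimates and lines their 95% intervals. The intervals of Spag9 event 2, Arhgap17 event 1, Numb event 1 and Mbnl1 event 1 leave out 0 in both comparisons with Ctr before adjustment for multiple testing, and none of the 12 passed after it.

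**Figure D4:**
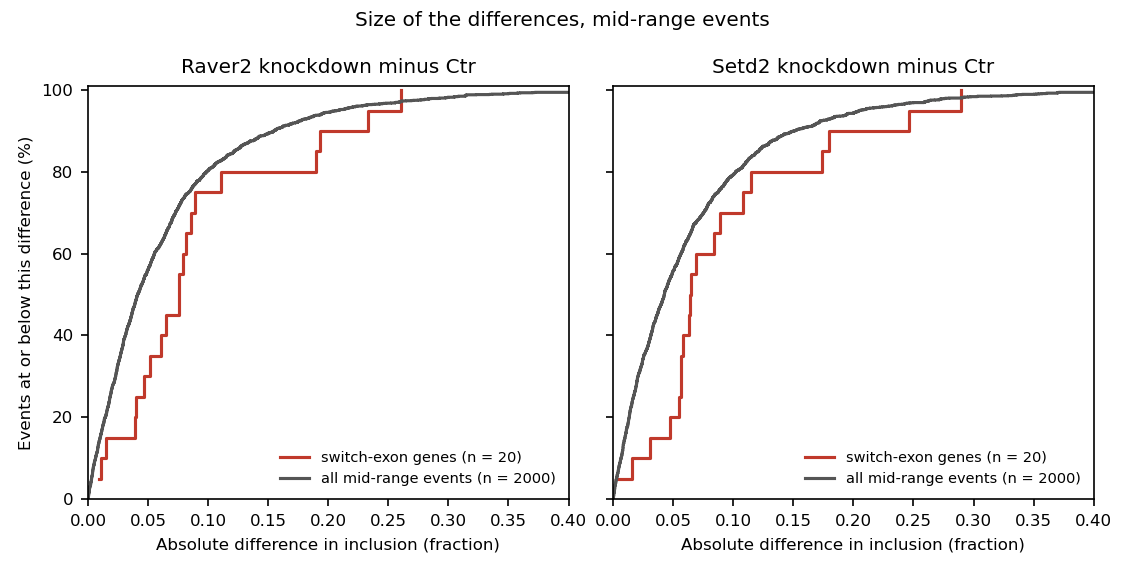
Cumulative share of events (y axis, percent) at or below an absolute difference in inclusion (x axis, fraction, drawn up to 0.4), for the 20 distinct mid-range events of the switch-exon genes and all 2000 mid-range events. The curve of the 20 events runs to the right of the other over most of its range, with medians of 0.0757 against 0.0413 for Raver2 knockdown and 0.0644 against 0.0426 for Setd2 knockdown.

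A contrast of the mean of both knockdowns with Ctr was added after the data were seen. The 4 knockdown libraries lay on the same side of both Ctr libraries in 14 of the 31 distinct events, 7 higher and 7 lower, where 24.1% of all events did (11.8% higher and 12.3% lower). The 14 events came from every gene of the set except Ctnnd1, and Tcf7l2 events 2 and 8, which mirror each other, are both among them. Of the 20 mid-range events, 13 did so (28.3% of all mid-range events), and 7 had an unadjusted p under 0.05 (14.6% of all mid-range events). In this contrast too, 0 of the 32 events passed (limma, lowest adjusted p = 0.176, for Spag9 event 2), where 3.07% of all events passed, and 8 of the 31 distinct events had an unadjusted p under 0.05, where 12.8% of all events had one.

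Other genes of the switch were taken from a list of 35 symbols, of which 20 had 41 events. For Raver2 knockdown against Ctr, 2 of the 41 passed, both lower, where 2.43% of all events passed, and 9 had an unadjusted p under 0.05, where 12.0% of all events had one (limma). For Setd2 knockdown against Ctr, 3 passed, 1 higher and 2 lower, where 2.23% of all events passed, and 8 had an unadjusted p under 0.05, where 11.6% of all events had one. Between the knockdowns 0 passed, where 0.730% of all events did, and 0 had an unadjusted p under 0.05, where 6.12% of all events had one. In the added contrast of both knockdowns with Ctr, 4 of the 41 passed, 1 higher and 3 lower, where 3.07% of all events passed (limma). There, 9 of the 41 had an unadjusted p under 0.05, where 12.8% of all events had one. Ppfibp1, a liprin of the cell edge, fell to below 0.01 in both Raver2 knockdown libraries and to 0.0585 and below 0.01 in the Setd2 knockdown libraries, against 0.639 and 0.541 in Ctr (limma, adjusted p = 0.0211 for Raver2 and 0.0254 for Setd2 knockdown). Mprip, which links myosin phosphatase to actin, fell to 0.155 and 0.123 in the Raver2 knockdown libraries and to 0.121 and 0.163 in the Setd2 knockdown libraries, against 0.471 and 0.527 in Ctr (limma, adjusted p = 0.0428 for Raver2 and 0.0489 for Setd2 knockdown). Event 2 of Aplp2, a relative of the amyloid precursor, rose under Setd2 knockdown to 0.880 and 0.922, against 0.649 and 0.678 in Ctr (limma, adjusted p = 0.0449), and had 0.879 and 0.842 under Raver2 knockdown (adjusted p = 0.0670). Event 1 of Clstn1 passed only in the contrast of both knockdowns with Ctr (limma, adjusted p = 0.0443). It had 0.0969 and below 0.01 in the Raver2 knockdown libraries, below 0.01 and 0.0759 in the Setd2 knockdown libraries, and 0.401 in both Ctr libraries. For each knockdown against Ctr, 0 of the 41 passed on the logit scale or when only the 4 libraries compared were fitted. Without any 1 of the 4 knockdown libraries, 0 passed for Raver2 knockdown, and for Setd2 knockdown 0 passed except without Setd2 knockdown replicate 2, where 1 did.

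Of 17 splicing regulators of such exons, 11 had 20 events, Ptbp1, Rbfox2, Qk, Rbm47 and Mbnl2 among them; Esrp1 and Esrp2 are in this list and in that of epithelial markers. Of the 20, 0 passed in any comparison (limma). Against Ctr, 2.43% of all events passed for Raver2 knockdown, 2.23% for Setd2 knockdown and 3.07% for both knockdowns. For Raver2 against Setd2 knockdown, 0.730% of all events passed. An unadjusted p under 0.05 was reached by 2 for Raver2 knockdown against Ctr, where 12.0% of all events reached it. For Setd2 knockdown against Ctr it was reached by 3, where 11.6% of all events did. Between the knockdowns it was reached by 0, where 6.12% of all events did. Without a variance trend, 3 passed for Raver2 knockdown and 1 for Setd2 knockdown against Ctr.

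Of 17 marker genes of fibroblasts and mesenchyme, 3 were listed (Fn1, Postn and Prrx1) with 8 events. Of the 8, 2 passed in each knockdown against Ctr, both lower (limma). Of all events, 2.43% passed for Raver2 knockdown and 2.23% for Setd2 knockdown against Ctr. In each of these comparisons, 5 of the 8 had an unadjusted p under 0.05 (limma). Of all events, 12.0% had one for Raver2 knockdown and 11.6% for Setd2 knockdown. Event 1 of Fn1, fibronectin, did not pass, with 0.218 and 0.201 in the Raver2 knockdown libraries, 0.216 and 0.261 in the Setd2 knockdown libraries, and 0.135 and 0.132 in Ctr. Event 4 of Fn1 did not pass either and was lower, by -0.122 for Raver2 knockdown and -0.126 for Setd2 knockdown. Postn event 2 was also lower without passing, by -0.0505 for Raver2 knockdown and -0.0671 for Setd2 knockdown. Event 2 of Fn1 was below 0.01 in all knockdown libraries, against 0.135 and 0.120 in Ctr (limma, adjusted p = 0.00676 for Raver2 and 0.00811 for Setd2 knockdown). Event 1 of Prrx1, a homeobox factor of mesenchyme, was at most 0.0128 in the knockdown libraries, against 0.325 and 0.345 in Ctr (limma, adjusted p = 0.00369 for Raver2 and 0.00506 for Setd2 knockdown). No summed level of these markers can be given, since the values are fractions, and their part in the differences of the 10 genes was not tested. Among 8 leukocyte markers, 3 were listed (Ptprc, Cd8a and Lck) with 3 events, and 0 passed against Ctr or had an unadjusted p under 0.05 (limma).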

How the data were processed

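The tools TopHat2, Cufflinks and Trimmomatic 0.39 and the build mm10 are named per the submitters' processing notes, which give no role or order. RNA was amplified with a low-input SMART-seq kit before Nextera XT library preparation, per the labels' protocols. The authors deposited 1 inclusion fraction per event and library; how it was computed and how low coverage was handled is not given in the sources used here. Such fractions from few reads can fall at 0 or 1 by chance.

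Events were joined by gene and order within the gene, for genes with the same number of events in all 6 libraries (2685 of 2898 genes, 4658 events). This assumes the same order in every table. The test was limma 3.58.1 in R 4.3.3 on the fractions, with a mean per group and a variance trend. Contrasts were two-sided, with Benjamini-Hochberg adjustment over all events. A trial on simulated data used normal noise, with spreads shuffled across events. That trial therefore does not show how the test behaves where the spread depends on the mean fraction. Exact permutation of 2 against 2 libraries allows no p under 0.333. Values per library were given for any member event that passed, for mid-range events with an unadjusted p under 0.05, and for the event with the smallest p of each gene; values of other member events were added after they were seen. Of the other switch-exon genes and splicing regulators, genes with an event that passed were named, up to 4 a list. The members, lists and tests were chosen with earlier results of these data known. Tables were read with Python 3.11.15 and pandas 2.3.3. Alternatives changed the scale, variance model, filters and libraries. Cassette exons came from GENCODE M21 transcripts of mm10.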

Additional observations from a re-analysis of the deposited data

How the results depend on the processing

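For the 32 events of the 10 genes, the count of calls stayed at 0 for Raver2 knockdown against Ctr, Setd2 knockdown against Ctr and Raver2 against Setd2 knockdown on the logit and arcsine square root scales, without a variance trend, with only the 4 libraries compared, with either filter on events and with repeated events left out. For both knockdowns against Ctr it stayed at 0 in the same settings other than the 4 libraries compared, since that contrast uses all 6. Without single libraries it ranged from 0 to 1 for Raver2 knockdown against Ctr, for Setd2 knockdown against Ctr and for both knockdowns against Ctr; the 1 call was Ctnnd1 event 4 without Ctr replicate 2, where the remaining Ctr library is assumed to vary like the other groups. With the hairpin number as a replicate block for Raver2 against Setd2 knockdown, 0 events of the 10 genes passed. In the labels, the hairpins of the 2 targets share only a number. The deviations of same-numbered libraries correlated at 0.0146 across 4658 events and at 0.0356 across the 2000 mid-range events. Whether same-numbered libraries were handled together was not tested.

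For the other switch-exon genes, 2 calls for Raver2 knockdown became 0 on the logit scale, 1 on the arcsine scale, 0 with only the 4 libraries compared and 1 among mid-range events, and 0 to 3 without single libraries. For Setd2 knockdown, 3 calls became 0, 0, 0 and 1 in the same settings, and 0 to 3 without single libraries. Between the knockdowns the count ranged from 0 to 1 without single libraries. For splicing regulators, no variance trend gave 3 calls for Raver2 and 1 for Setd2 knockdown.

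Of the 12 events shown by group, none passed in any alternative (lowest adjusted p 0.0911 for Raver2 knockdown, 0.118 for Setd2 knockdown and 0.104 between them). Only the scales and the leaving out of a compared library can move the sign of a difference. Against Ctr it turned for Ctnnd1 event 2 under Raver2 knockdown, whose difference ranged from -0.151 to 0.000676 without single libraries. Between the knockdowns, differences of 7 events changed sign without a single library: Exoc7 event 1 ranged from -0.00702 to 0.0257, Map3k7 from -0.0147 to 0.0623, Mark2 event 1 from -0.0261 to 0.0317, Mbnl1 event 1 from -0.00895 to 0.0103, Numb event 1 from -0.0313 to 0.00992, Numb event 2 from -0.0306 to 0.0149 and Tcf7l2 event 8 from -0.0456 to 0.00110. The cause was not tested.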
